A study of Homo sapiens with 15 samples.

Results

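The proteasome genes described here are the protein-coding genes of the GENCODE annotation on GRCh37 whose symbols read PSMA, PSMB, PSMC, PSMD, PSME, PSMF or PSMG followed by a number. The rule found 48 of 19794 protein-coding genes and used no measured value. They were read in BG4 ChIP-seq of asynchronous, untreated K562 cells, an established human chronic myeloid leukaemia line; BG4 is an antibody that binds folded G-quadruplexes (G4s), 4-stranded structures of guanine-rich DNA. There were 5 libraries from 2 biological replicates, libraries 1a and 1c from the first and 2a, 2b and 2c from the second, so libraries of the same replicate are technical repeats. Inside the 2a list the peaks are named with a c, and inside the 2c list with an a; both were assigned by their sample labels, on which values given to 2a or 2c alone rest. The inputs and the HaCaT bisulfite samples (control and entinostat) of the series were not analysed here. The values are peaks, not expression, so the labelled cell line could not be checked against marker genes, and the number of copies of each chromosome in K562 was not measured.

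The proteasome is the barrel-shaped protease that degrades proteins tagged with ubiquitin. Rings of alpha subunits gate its core, rings of beta subunits cut the substrate inside, and a regulatory particle of base and lid recognises the substrate, removes ubiquitin and unfolds it with ATP. Other activators and an inhibitor bind the same ends of the core, and dedicated chaperones assemble both particles. Most of these genes are housekeeping genes with CpG-island promoters, whereas a few core subunits replace constitutive ones in immune cells, thymus or testis.

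A gene was counted as marked where a high-confidence region, a stretch with a peak in at least 3 of the 5 libraries, lay within 1 kb of any of its start sites. Such a region was found at 27 of the 48 proteasome genes (56.2%), against 34.9% of all protein-coding genes. Without library 2c, with 3 lists still needed, the count was 19, or 39.6% of the proteasome genes against 30.3% of all genes. A region called in all 5 libraries was found at 16 members (33.3%, against 22.3%). The 48 genes differed from the whole annotation in their promoters: 46 carried a strict CpG island (95.8%) against 75.5% of all genes. Among genes with such an island, 27 of the 46 proteasome genes (58.7%) and 45.4% of all genes had a region, whereas only 2.45% of genes without one did. Neither proteasome gene without a strict island, PSMB5 and PSMB11, had a peak in any library. For comparison, the ribosomal protein genes, another housekeeping set, had a region at 48.8% of 86 genes.

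DNA under some of the 16 members called in all 5 libraries is shown to set promoters with the textbook G4 pattern beside promoters without it. Members were taken in order of their lowest rank over the libraries, where the motif lay outside annotated untranslated parts, so PSMC4 and PSMG4 are shown although stronger members are not. The pattern, here called a G4 motif, is 4 runs of at least 3 G separated by loops of 1 to 7 bases, on either strand. The sequences are from GRCh37, given 5′ to 3′ on the guanine-rich strand with 10 bases on either side of the motif, and capitals mark runs of 3 or more G inside the motif. The flanks are in lower case throughout, also where they hold such a run, as at PSMD13 and PSMG4. The sequences lie at chr3:184016850-184016890 on the plus strand (PSMD2, a base scaffold subunit), chr11:236386-236428 on the minus strand (PSMD13, lid), chr19:40476874-40476914 on the minus strand (PSMC4, a base ATPase) and chr6:3259073-3259119 on the minus strand (PSMG4, a core assembly chaperone). None of the 4 overlaps an annotated exon.
PSMD2: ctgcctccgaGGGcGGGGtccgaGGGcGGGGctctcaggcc
PSMD13: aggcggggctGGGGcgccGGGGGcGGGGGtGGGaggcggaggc
PSMC4: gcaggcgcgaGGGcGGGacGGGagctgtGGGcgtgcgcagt
PSMG4: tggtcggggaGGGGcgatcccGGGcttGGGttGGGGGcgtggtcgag

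PSMB10, the inducible counterpart of the catalytic subunit PSMB7, and PSMD5, a chaperone of base assembly, had strong regions with no motif. The 81 bases at the middle of each region are shown on the gene's own strand, with all runs of 3 or more G in capitals, at chr16:67969671-67969751 for PSMB10 and chr9:123605248-123605328 for PSMD5, both on the minus strand. The PSMB10 stretch holds 4 runs of 3 or more G, spaced too far apart for the motif, and the PSMD5 stretch holds 1. Neither overlaps an annotated untranslated or coding part; the first overlaps an exon of a PSMB10 transcript with no coding annotation, and the second an exon of CUTALP on the other strand. The third sequence, chosen after its values were seen, is the reverse case: a motif 228 bp downstream of the start site of PSMB7, at chr9:127177472-127177515 on the minus strand, in an exon of PSMB7 transcripts with no coding annotation, where no library had a peak.
PSMB10: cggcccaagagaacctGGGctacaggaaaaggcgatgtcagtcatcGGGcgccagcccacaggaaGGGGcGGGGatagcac
PSMD5: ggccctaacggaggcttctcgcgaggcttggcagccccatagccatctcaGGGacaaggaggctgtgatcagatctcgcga
PSMB7: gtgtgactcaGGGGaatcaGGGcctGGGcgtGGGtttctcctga

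By role, the lid had a region at 6 of 8 genes (75.0%) and the activators with the inhibitor at 4 of 5 (80.0%). Assembly chaperones had one at 4 of 7 (57.1%), the constitutive core at 7 of 14 (50%), the base at 4 of 9 (44.4%) and the inducible or tissue-specific core subunits at 2 of 5 (40%). Base and lid together reached 10 of 17 (58.8%). With 5 to 14 genes a role, 1 or 2 genes move these shares by much, and no difference between roles was tested. Without library 2c the lid count was 4, the base count 2 and the activator and inhibitor count 2. The base was also at 2 without library 1a, and the lid at 4 without 1a or without 2b. All genes were at 31.0% without 1a, 31.5% without 2b and 30.3% without 2c. The 2 of 9 base genes left without 1a or without 2c were thus a lower share than that of all genes. A peak in 3 lists was still needed with a library left out. The base lost PSMC3 and PSMC6, each with a peak in 3 libraries, 1a and 2c among them.

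**Figure D1:**
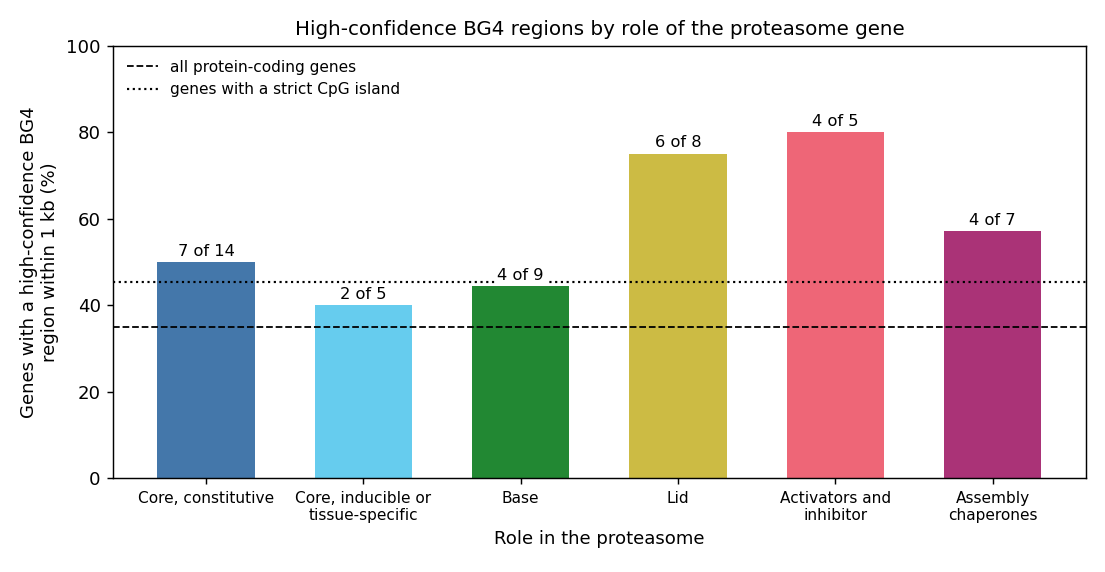
Share of genes of each role (x axis) with a high-confidence BG4 region within 1 kb of a start site (y axis, percent), with the number of genes above each bar. The dashed line is the share over all protein-coding genes (34.9%) and the dotted line that over genes with a strict CpG island (45.4%). The bars of lid, activators, assembly chaperones and constitutive core stand above both lines, and the inducible core and base lie between them.

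In single lists, peaks within 1 kb were found at 29 proteasome genes in library 1a (60.4%, against 38.6% of all genes), 22 in 1c (45.8%, against 32.7%), 27 in 2a (56.2%, against 32.0%), 25 in 2b (52.1%, against 35.5%) and 31 in 2c (64.6%, against 39.1%). Peaks in all 5 libraries were found at 16 members (33.3%) and at 23.1% of all genes. A further 22 members had a peak in 1 to 4 libraries, so 38 (79.2%) had one in any library, against 47.7% of all genes. The 10 members with no peak in any library were PSMA8, PSMB4, PSMB5, PSMB6, PSMB7, PSMB8, PSMB11, PSMC1, PSMC5 and PSMD6. Their separation from a region was wide: the member with a region whose start site lay farthest from it was PSMD3, at 175 bp, and the nearest region to any member without one lay 5150 bp from PSMB8, followed by 5715 bp from PSMB6.

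**Figure D2:**
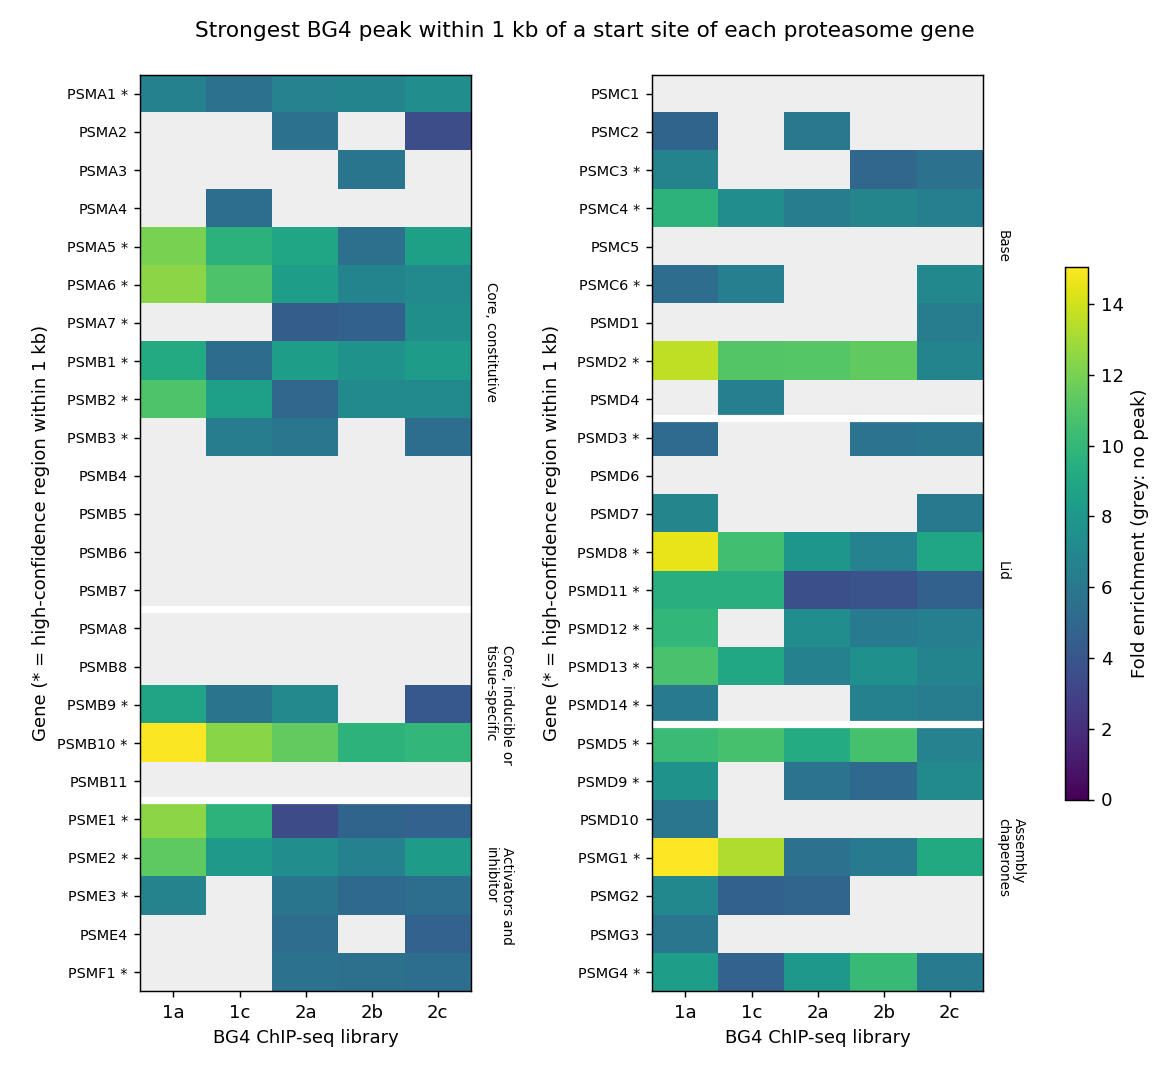
Fold enrichment over background of the strongest BG4 peak within 1 kb of a start site (colour, as given by the authors' peak caller) for the 48 proteasome genes (rows, by role) in the 5 libraries (columns); grey is no peak and an asterisk marks a high-confidence region. PSMB10, PSMD2 and PSMD5 are coloured in all 5 columns, and PSMB4 to PSMB7 are grey throughout.

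The values below are the fold enrichment of the strongest peak within 1 kb, in the order 1a, 1c, 2a, 2b and 2c. A fold comes from the authors' caller and ranks peaks within its own list; the lists were not put on a common scale, so a percentile, the share of peaks of the same list with a fold no higher, is given where libraries are set side by side. Among the alpha subunits, PSMA6 had folds of 12.4, 10.8, 8.39, 6.82 and 7.17 and PSMA5 of 12.01, 9.67, 8.87, 5.58 and 8.54. Both genes were marked in every library, and both were higher in the list of each replicate 1 library than in any of replicate 2. PSMA1 had 6.64, 5.63, 6.70, 6.25 and 7.38 at its region. Its strongest peak in 2b, of 6.82, was instead near its canonical start site. The percentiles of its strongest peaks were 48.4, 30.9, 48.8, 62.1 and 73.3. PSMA7, the alpha subunit whose testis-specific relative is PSMA8, was called in replicate 2 alone, with 4.44, 4.69 and 7.47. PSMA8 had no peak. PSMA2 had peaks in 2a (5.61) and 2c (3.58), PSMA3 in 2b (5.84) and PSMA4 in 1c (5.43), and none of these gave a region.

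Among the constitutive beta subunits, PSMB1 had folds of 9.20, 5.34, 8.40, 7.76 and 8.31 and PSMB2 of 10.9, 8.53, 4.95, 7.14 and 7.16. Neither cuts peptides. The PSMB1 values are those of its region at −974 bp. Its region on the start site had 6.005, 5.285, 7.473 and 5.871 in 1a, 1c, 2b and 2c and no peak in 2a. Both PSMB1 regions are also within 1 kb of a start site of TBP. PSMB3, also without catalytic activity, had peaks in 1c (6.41), 2a (5.91) and 2c (5.41). The 3 subunits that carry the active sites, PSMB5 (chymotrypsin-like), PSMB6 (caspase-like) and PSMB7 (trypsin-like), had no peak in any of the 5 libraries, nor did PSMB4. PSMB5, PSMB6 and PSMB7 had GC contents of 49.6%, 49.1% and 50.8% within 1 kb of the canonical start site (the start of the annotation's canonical transcript), below the median of 55.1% over members with a region. PSMA6, with a peak in every library, had a GC content of 50.9%.

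Of their inducible counterparts, which form the immunoproteasome, PSMB10 and PSMB9 had a region and PSMB8 had no peak. PSMB10 had the highest lowest percentile of all 48 genes: its folds were 15.0, 12.4, 11.4, 9.72 and 9.97, at percentiles of 97.9, 96.7, 95.5, 92.3 and 93.2. PSMB9, which replaces PSMB6, had 8.78, 5.78, 7.12 and 4.17 in 1a, 1c, 2a and 2c and no peak in 2b. PSMB8, which replaces PSMB5, and the thymus-specific PSMB11 had none. In the pairs, PSMB10 and PSMB9 were thus marked where PSMB7 and PSMB6 were not, PSMB8 and PSMB5 were both without a peak, and PSMA7 was marked where PSMA8 was not. The PSMB10 region is 1042 bp downstream of its canonical start site. Those of PSMB9 and PSMA7 are also within 1 kb of start sites of TAP1 and SS18L1, and PSMA7 was called in replicate 2 alone.

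In the base, PSMD2, the scaffold that docks ubiquitin shuttles, had folds of 13.6, 11.02, 11.1, 11.4 and 6.82, lowest in 2c. Of the 6 ATPases that unfold substrates, PSMC4 was called in every library (9.74, 7.36, 6.30, 6.84 and 6.50). PSMC3 was called in 1a, 2b and 2c (6.72, 4.98 and 5.66) and PSMC6 in 1a, 1c and 2c (5.40, 6.50 and 7.04), so both reached the 3-library minimum with no library to spare. PSMC2 had peaks in 1a (4.86) and 2a (6.04) alone, and PSMC1 and PSMC5 had none. The ubiquitin receptor PSMD4 had a peak only in 1c (6.50) and the scaffold PSMD1 only in 2c (6.31).

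In the lid, PSMD8 had folds of 14.6, 10.5, 7.90, 6.65 and 8.85 and PSMD13 of 10.7, 8.97, 6.63, 7.56 and 6.81. Both had higher percentiles in each replicate 1 list than in any of replicate 2. In 2a, 2b and 2c these were 70.33, 59.08 and 87.18 for PSMD8 and 47.16, 73.85 and 65.05 for PSMD13. The PSMD13 values are those of its region at −565 bp, also within 1 kb of a start site of SIRT3. Its region on the start site had 9.14, 5.59, 4.73 and 5.49 in 1a, 1c, 2a and 2c and no peak in 2b. PSMD11, which stimulates lid assembly and proteasome activity, had 9.44 and 9.47 in 1a and 1c but 3.68, 3.88 and 4.65 in 2a, 2b and 2c, with a lowest percentile of 1.17. PSMD12 had 9.97, 7.40, 6.25 and 6.53 in 1a, 2a, 2b and 2c. PSMD14, the deubiquitinase of the lid, had 6.20, 6.64 and 6.33 and PSMD3 had 5.27, 5.76 and 5.88, both in 1a, 2b and 2c. PSMD7, the partner of PSMD14, had peaks in 1a (6.86) and 2c (6.08) that gave no region, and PSMD6 had none.

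The activators PSME1 and PSME2 form the interferon-inducible ring that opens the core. PSME2 had 2 regions, with folds of 11.3, 8.13, 6.42, 5.08 and 8.24 at the one nearer its start sites and 7.57, 6.86, 7.40, 6.64 and 7.38 at the other. PSME1 had 12.4, 9.76, 3.43, 4.85 and 4.76, at percentiles of 93.8, 88.4, 0.74, 18.3 and 20.4, so the same promoter was near the top of both replicate 1 lists and near the bottom of the 2a list. PSME3, the nuclear activator, had 2 regions at different start sites, each called in 3 libraries. Folds were 5.60, 5.87 and 5.46 in 1a, 2a and 2c at the canonical start site and 6.74, 5.12 and 4.90 in 1a, 2b and 2c at the other. PSME4, which works with acetylated histones, had 5.40 in 2a and 4.76 in 2c and no region. The inhibitor PSMF1 was called in replicate 2 alone, with 5.69, 5.57 and 5.41.

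Among the assembly chaperones, PSMD5 had 10.2, 10.7, 9.26, 10.7 and 6.68 and PSMG4 had 8.43, 4.73, 8.01, 10.2 and 6.24. PSMG1, which pairs with PSMG2 to build the alpha ring, had 15.1 and 13.3 in 1a and 1c. Each was the highest fold of any proteasome gene in its list. In replicate 2 PSMG1 had 5.64, 6.28 and 9.13. PSMD9 had 7.72, 5.75, 5.17 and 7.19 in 1a, 2a, 2b and 2c. PSMG2 had peaks in 3 libraries (7.03 in 1a, 4.71 in 1c and 4.94 in 2a) but at different places, so they gave no region. PSMG3 and PSMD10 each had 1 peak, in 1a, at 5.94 in both.

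The 2 biological replicates placed these genes differently in their lists. Over genes with a peak in the library, the median percentile of the proteasome genes was 78.7 in 1a and 77.1 in 1c, against 65.7 and 64.4 for all genes. In 2a it was 41.3 against 57.9, in 2b 58.9 against 58.9, and in 2c 59.8 against 60.9. Of the 16 members with a peak in all 5 libraries, 10 (62.5%) had a higher percentile in both replicate 1 libraries than in any replicate 2 library, against 21.8% of the 4568 such genes. These 10 were PSMA5, PSMA6, PSMB2, PSMB10, PSMC4, PSMD8, PSMD11, PSMD13, PSME1 and PSMG1. At PSMD13 the percentiles are those of peaks in its region at −565 bp, and its region on the start site had no peak in 2b. The reverse order was seen at 1 member, PSMA1 (6.2%, against 12.1%), whose strongest 2b peak is at another start site than in the other libraries. With every list held to the length of the shortest, 8059 peaks, the first count was 9 of 15 (60%, against 17.1%). With each library left out in turn it was 62.5% to 68.8% of 16 to 19 members, against 27.6% to 36.8% of all such genes, the highest background being without 1c. The lists held between 8059 and 12495 peaks, library depth is not known from peak lists, and the part of depth in these differences was not tested.

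The 27 marked genes had 32 regions, none shared between members. Region widths ran from 70 to 353 bp with a median of 185.5 bp, against 215 bp over all 6848 regions within 1 kb of a start site. Of the 32, 17 were called in 5 libraries (53.1%, against 58.8%), 6 in 4 (18.8%, against 21.5%) and 9 in the minimum of 3 (28.1%, against 19.6%). The median distance from a start site to the middle of the region was −56 bp, that is upstream, against −68 bp over all promoter regions; 28 regions (87.5%, against 82.9%) had their middle upstream and 20 (62.5%, against 65.7%) covered a start site. Of the 32, 21 overlapped an annotated exon of the gene (65.6%, against 70.4%), 20 an untranslated part (62.5%, against 68.5%) and 7 coding sequence (21.9%, against 12.4%).

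**Figure D3:**
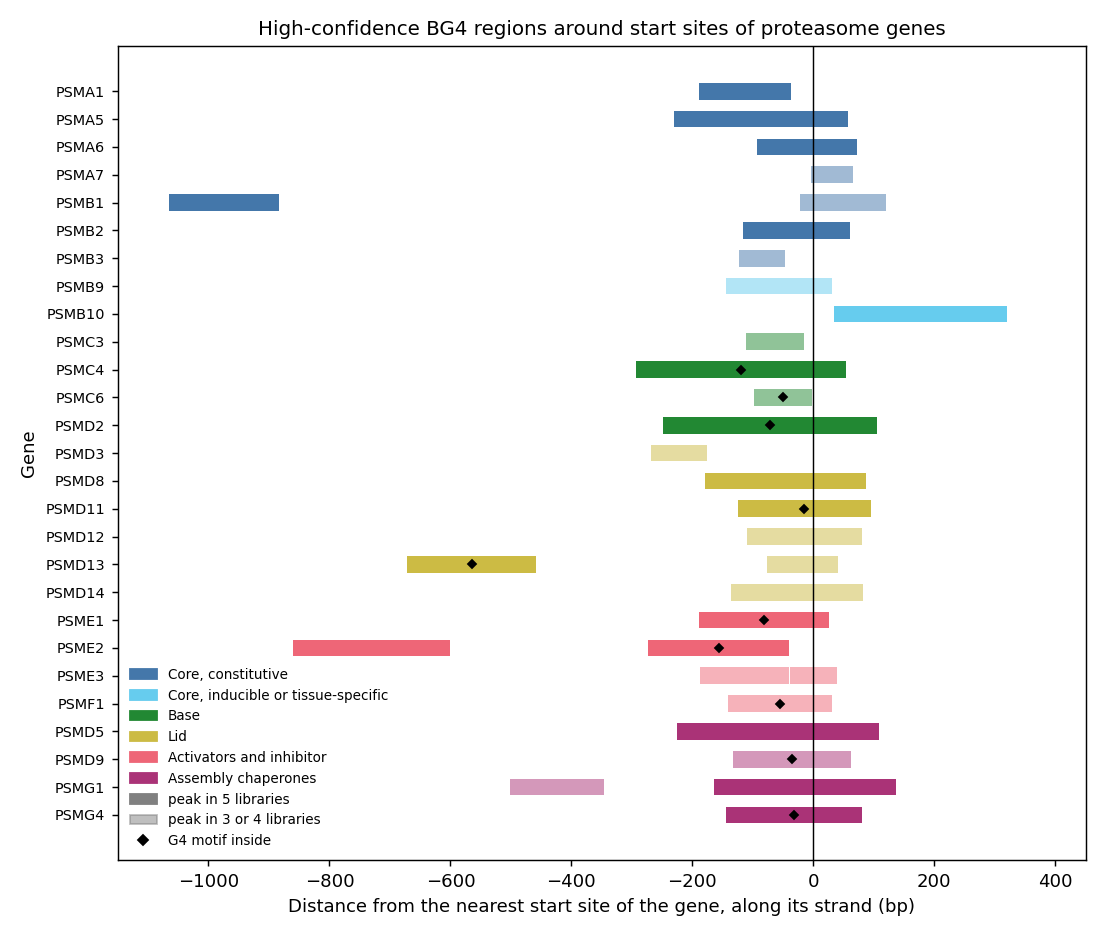
Extent of the 32 high-confidence regions of 27 proteasome genes (bars) along the gene's strand, in bp from its nearest start site (x axis, negative is upstream). Colours are roles, pale bars are regions called in 3 or 4 libraries, and diamonds mark regions with a G4 motif; most bars touch or lie just upstream of 0, with second regions at PSMB1, PSMD13, PSME2, PSME3 and PSMG1.

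Several regions lie away from the canonical start site. At PSMB10 the region, chr16:67969569-67969853, is 1042 bp downstream of it and overlaps coding sequence in part, 177 bp past an alternative start site. At PSMA1 it is at chr11:14665201-14665352, at −123344 bp (negative is upstream), by an alternative start site that faces PDE3B, a phosphodiesterase gene. PSME3 had a region on its canonical start site, chr17:40985377-40985454, and another at −9084 bp, chr17:40976257-40976403, and both were close to start sites of the autophagy gene BECN1. PSMB1 had a region on its start site, chr6:170862276-170862417, and a stronger one at −974 bp, chr6:170863279-170863459, on the side of TBP, the gene of the TATA-binding protein. A peak here cannot be given to either gene of such a pair.

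In all, 11 regions (34.4%, against 16.5% of all promoter regions) were also within 1 kb of a start site of another protein-coding gene. They belong to 7 members (25.9% of those marked, against 29.3% of all marked genes): PSMA1 with PDE3B, PSMA7 with SS18L1, PSMB1 with TBP, PSMB9 with TAP1, the peptide transporter of antigen presentation, PSMD13 with the mitochondrial deacetylase SIRT3, PSME2 with the ubiquitin ligase RNF31 and PSME3 with BECN1. Leaving out all such regions left 20 marked members (41.7%, against 25.4% of all genes). Of the 27, 5 had 2 regions (18.5%, against 14.1%).

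Every proteasome region overlapped a strict CpG island (100%, against 95.0% of all promoter regions). The median GC content of the proteasome regions was 69.4%, against 71.1%. Their GC content ran from 50.6% at PSMB3 to 83.6% at the upstream region of PSMD13. A G4 motif was inside 10 of the 32 (31.2%, against 37.3%). These are the regions of PSMC4, PSMC6, PSMD2, PSMD9, PSMD11, PSMD13, PSME1, PSME2, PSMF1 and PSMG4, so no region of a core subunit held one. The motif ran on the strand opposite to the gene's transcript in 8 of the 10, as in the PSMC4, PSMD13 and PSMG4 sequences above, on the transcript's strand at PSMD2, and on both strands at PSMD11. Counting both-strand regions on each side, 90% held it on the opposite strand and 20% on the transcript's strand. Over 2920 pairs of a gene and a motif-bearing region, the shares were 51.4% and 58.3%. The 90% and 20% rest on 10 regions. Those of PSMD13 and PSME2 also lie within 1 kb of start sites of SIRT3 and RNF31, so their strand is not particular to the proteasome gene. With looser motif rules more regions held one: 46.9% with loops of up to 12 bases, against 53.4% of all promoter regions, and 78.1% with runs of 2 or more G, against 93.8%.

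A motif somewhere within 1 kb of a start site was present at 31 of the 48 genes (64.6%) against 73.4% of all genes. A motif was thus found at a smaller share of proteasome genes than of all genes, and a region at a larger share. Among members with a strict island, 18 of 29 with a motif had a region (62.1%, against 46.9% of all such genes) and so did 9 of 17 without one (52.9%, against 38.1%). The number of start sites, which widens the searched window, moved with the count: a region was found at 16 of 26 members with at least 4 start sites (61.5%, against 45.8%) and at 11 of 22 with 1 to 3 (50%, against 27.1%).

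GC content varied more between members than between marked and unmarked ones. Within 1 kb of the canonical start site its median was 55.1% (45.9% to 75.0%) over the 27 members with a region and 51.8% (42.0% to 62.9%) over the 21 without. The median number of CpG dinucleotides was 95 (62 to 287) and 85 (36 to 150). Members with a peak in 0, 1, 2, 3, 4 and 5 libraries had median GC contents of 51.8%, 52.2%, 50.9%, 55.8%, 52.9% and 56.7%. The ranges overlap: PSMA7, at 75.0%, was called in 3 libraries, PSMG3, at 62.9%, in 1, and PSMB1, at 46.4%, in all 5. At PSMB1 the region on the start site was called in 4 libraries and the region at −974 bp in all 5.

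**Figure D4:**
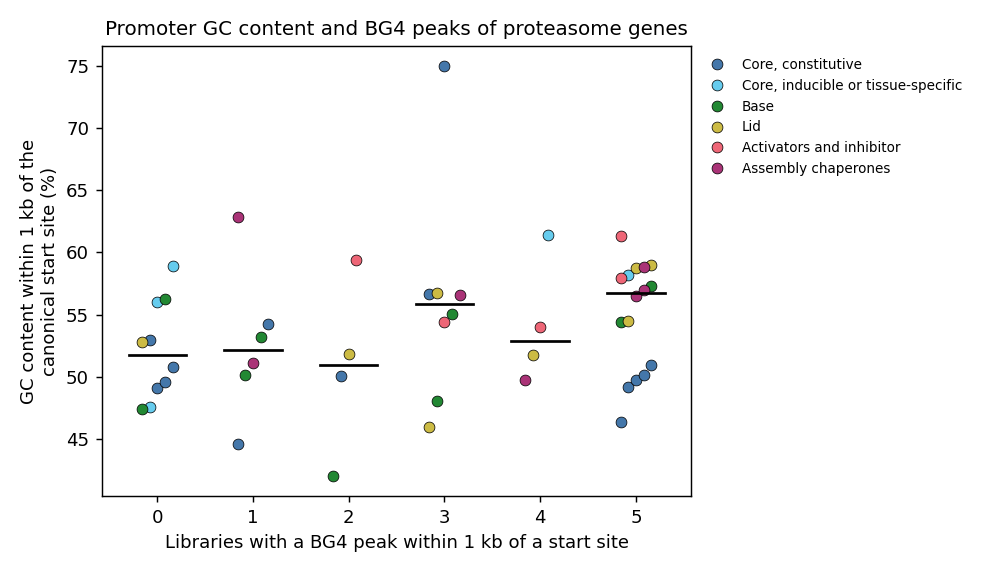
GC content within 1 kb of the canonical start site (y axis, percent) of each of the 48 proteasome genes against the number of libraries with a BG4 peak (x axis). Points are genes coloured by role and bars are medians, from 51.8% with no library to 56.7% with 5; the points of neighbouring columns overlap.

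Proteasome genes are known targets of NFE2L1 (NRF1), which raises their transcription together when the proteasome is inhibited and binds antioxidant response elements. The letters of 4 promoter motifs were counted on both strands in the RefSeq promoter table (GRCh38.p14, 250 bases before to 50 after the start), which held 42 of the 48 genes. The antioxidant response core TGANNNNGC was present in 28 (66.7%, against 49.6% of 15843 promoters), in 17 of 25 members with a region and 11 of 17 without. The ETS core CCGGAAG was present in 15 (35.7%, against 16.5%), in 9 of the 25 and 6 of the 17. The GC box GGGCGG (69.0%, against 64.3%) and CCAAT (47.6%, against 42.1%) were near the share of all promoters. These are matches of letters, not sites shown to be bound.

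Of 30 other genes of the ubiquitin-proteasome system, 21 had a region (70.0%), against 34.9% of all genes. All 30 carried a strict island, and over genes with such an island the share was 45.4%. The highest lowest percentile was at USP14, a deubiquitinase bound to the base, with folds from 10.6 to 14.3 over the 5 libraries. The ligase UBE3A had folds from 7.30 to 9.45, the ubiquitin shuttle RAD23B from 6.50 to 10.5 and DDI2, the protease that activates NFE2L1, from 5.93 to 10.9. AKIRIN2, which brings proteasomes into the nucleus, and NPLOC4, a cofactor of the unfoldase VCP, had no peak in any library. SEM1, named after its values were seen because it is a lid subunit whose symbol the rule does not take in, had none either.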

How the data were processed

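Per the submitters' processing notes, the authors called peaks with MACS2 on hg19; the aligner, control, version and settings are not given in the sources used here. Each deposited peak list gives a score, a fold enrichment (ratio over background) and −log10 p and q values for each peak; the deposited high-confidence list gives positions alone. Bases covered by 3 or more of the 5 lists gave the same 8955 regions; 15 mitochondrial ones were left out. The names of peaks in the 2a and 2c lists carry each other's letter, and the sample labels were followed. Total read counts are not in peak lists, so depth is unknown and no interval is given.

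Regions and peaks were joined by an overlap of at least 1 base with 1 kb on either side of the start sites of all protein-coding transcripts (GENCODE release 44 mapped to GRCh37). A strict CpG island is a 500 bp window with a GC fraction of at least 0.55 and an observed to expected CpG ratio of at least 0.65. Sequences and GC content come from GRCh37. Python 3.11.15, numpy 2.4.6, pandas 2.3.3, pysam 0.24.0 and samtools 1.23.1 were used, and the scripts were tested on simulated data. No p-value is given: counts stand beside the share over all genes. Roles, the list of 30 other pathway genes and the members were chosen with earlier results of these data known. Values in every library are given for members whose lowest percentile is among the 4 highest of their role, for members with a peak in 1 to 4 libraries and for paralogue pairs; up to 6 other pathway genes are named by their lowest percentile or, with no region, in alphabetical order, and SEM1 besides. Alternatives were another p threshold, library number, list length, window, overlap, choice of start sites, motif rule and each library left out.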

Additional observations from a re-analysis of the deposited data

How the results depend on the processing

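Of 139 alternative values over 12 results, 120 stayed within 1.5 times the main count or share, in either direction. Regions called in all 5 libraries left 16 proteasome genes, 2 base, 3 lid, 2 activator and inhibitor, 1 inducible core and 13 other pathway genes, and 22.3% of all genes. Peaks with −log10 p of at least 10 left 18 proteasome genes (37.5%, against 24.9% of all genes), among them 2 base, 2 activator and 1 inducible gene. Regions called in any library gave 7 base and 7 assembly genes. Equal list lengths left 21 proteasome genes (43.8%, against 30.5%), 2 of them activators, and the outermost start site alone left 1 inducible gene. The share of proteasome regions with a G4 motif was 46.9% with loops of up to 12 bases and 78.1% with runs of 2 G (all promoter regions, 53.4% and 93.8%). Leaving out each library in turn gave 19 to 25 proteasome genes, 5 to 7 core, 2 to 4 base, 4 to 6 lid, 2 to 4 activator, 4 assembly, 2 inducible and 16 to 20 other pathway genes, 30.3% to 32.6% of all genes, a motif share of 30.0% to 32.1%, and 10 to 13 members higher in replicate 1 (27.6% to 36.8% of all such genes). With a library left out, a peak in 3 of the remaining lists was still needed. Without 2c the regions of PSMA7, PSMB3, PSMC3, PSMC6, PSMD3, PSMD14, PSME3 and PSMF1 were lost. Each of these regions had a peak in 3 libraries, 2c among them, so the rule removes them. Why 2c was among them was not tested. The alternatives on basic transcripts, canonical start sites, regions of a single gene, the count in all 5 libraries and the replicate order, and the motif share with a library left out, were chosen after seeing the data. No paired analysis was possible because all 5 libraries belong to 1 group and the results are counts with no test.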
